A study of Mus musculus with 12 samples.

Results

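Galectins are small lectins that bind β-galactosides, the galactose-bearing sugar chains carried by glycoproteins and glycolipids. The galectin genes Lgals1, Lgals2, Lgals3, Lgals4, Lgals7, Lgals8, Lgals9 and Lgals12 were taken by gene name from the array design, with every probe kept. These 8 genes had 10 of the 41174 non-control probes, because Lgals4 and Lgals8 have 2 probes each. Most galectins are made in the cytosol, leave the cell by a route that bypasses the secretory pathway, and cross-link glycoproteins at the cell surface and in the matrix; inside the cell, some bind glycans exposed by damaged endosomes and lysosomes. Prototype galectins have a single carbohydrate-recognition domain, tandem-repeat galectins have a pair joined by a linker, and galectin-3, the chimera type, has 1 domain behind a long N-terminal tail. Fibroblasts are known as a source of galectin-1 and galectin-3, whereas galectin-2 and galectin-4 are known mainly from the digestive tract, galectin-7 from stratified epithelia and galectin-12 from fat cells.

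The arrays compared mouse embryonic fibroblasts (MEFs), connective tissue cells grown from embryos, of 3 genotypes of Sirt1, which encodes an NAD-dependent protein deacetylase: knockout (KO), heterozygous (Het) and wild type (WT), with 4 arrays each. All 3 genotypes were labelled as female cells with no special treatment and were grown in DMEM with glucose at 25 mM, glutamine at 4 mM and fetal bovine serum at 10%; each array received Cy3-labelled cRNA made from 500 ng of total RNA. The labels give neither the deleted stretch of Sirt1 nor the number of embryos or cultures behind the 12 arrays, so the spread that p-values are measured against is that of these arrays and may be technical. Arrays are named here by genotype and by the number in their labels (2 to 5 for KO and Het; 1, 2, 3 and 5 for WT).

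Lgals2 was chosen by its measured values, the KO minus WT and Het minus WT differences on these same arrays, so its values are given as a description, with no test. The other galectins joined it as members of the family. Probe sequences of 6 galectins are shown 5′ to 3′ in lower case, because a level below is the signal at 1 such probe of 60 bases and says nothing of the rest of the transcript. In the Lgals2 probe (chr15:78933837-78933896, minus strand, build mm7) the last 30 bases are printed, with the letters AATAAA, the commonest polyadenylation signal, in capitals. In Lgals8 probe 1 (chr13:12408485-12408544, minus strand) the capitals mark the pattern CA, any 4 bases, AA, any base, CC, any base, CG, letters that can encode conserved residues of the carbohydrate-recognition domain.
Lgals2 probe, bases 31 to 60: tttccccaaggtcaaggtcaAATAAAagaa
Lgals7 probe: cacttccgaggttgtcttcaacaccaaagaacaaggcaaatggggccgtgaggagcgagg
Lgals3 probe: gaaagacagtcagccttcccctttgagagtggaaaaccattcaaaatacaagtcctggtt
Lgals4 probe 2: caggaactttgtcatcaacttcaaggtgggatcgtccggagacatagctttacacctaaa
Lgals8 probe 1: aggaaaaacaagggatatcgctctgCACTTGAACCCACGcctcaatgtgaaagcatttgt
Lgals9 probe: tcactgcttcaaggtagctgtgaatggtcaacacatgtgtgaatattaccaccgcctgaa

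The motif AATAAA, read on the probe strand only, also lay in the Lgals1 probe and in Lgals4 probe 1, so 3 of the 10 galectin probes held it, and 4.78% of all 41174 probes did. The domain pattern, read on the probe strand, was in 9 of the 41174 probes. The Lgals7 probe lies at chr7:25800197-25800256, plus strand, and the Lgals9 probe at chr11:79045037-79045096, minus strand, both in mm7. The 60-base Lgals3 probe spans 817 bases of the genome (chr14:42712515-42713331, plus strand) and the 60-base Lgals4 probe 2 spans 252 bases (chr7:25775064-25775315, plus strand), so both read across a gap in the genome. No gene model of mm7 was used, so no probe is placed in an exon or a UTR. The longest run of bases shared by any pair of galectin probes, with the probe of Lgals6, a close copy of Lgals4, included, was 9 bases.

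Promoters are shown for the galectin with the widest KO minus WT difference, Lgals2, and for the known interferon-induced galectin, Lgals9. RefSeq held a promoter window of 300 bases, 250 before and 50 after a start position, for 6 of the 8 genes in build GRCm38.p6. Lgals1 and Lgals12 had no entry in it. For Lgals2, Lgals3 and Lgals9 that position is the outer end of the gene's span. The windows of Lgals4, Lgals7 and Lgals8 lie inside the span. The Lgals2 window is chr15:78855480-78855779 and the Lgals9 window chr11:78984875-78985174, both on the minus strand. Both strands were searched for TTTATG, letters to which the intestinal CDX factors are known to bind, and for GAAA, any 2 bases and GAAA, letters of the interferon-stimulated response element (ISRE); the matches are in capitals.
Lgals2 promoter: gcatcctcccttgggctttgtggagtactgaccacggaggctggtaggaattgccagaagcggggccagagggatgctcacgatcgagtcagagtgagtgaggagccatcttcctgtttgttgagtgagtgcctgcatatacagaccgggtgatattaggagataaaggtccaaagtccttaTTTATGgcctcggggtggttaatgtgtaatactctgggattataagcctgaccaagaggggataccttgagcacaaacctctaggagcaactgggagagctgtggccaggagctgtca
Lgals9 promoter: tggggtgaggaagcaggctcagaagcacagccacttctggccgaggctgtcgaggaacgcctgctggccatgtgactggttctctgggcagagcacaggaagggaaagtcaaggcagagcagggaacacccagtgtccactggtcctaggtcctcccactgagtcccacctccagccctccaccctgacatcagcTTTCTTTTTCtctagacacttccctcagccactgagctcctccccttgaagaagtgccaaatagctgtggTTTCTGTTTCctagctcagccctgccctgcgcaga

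The Lgals2 window held TTTATG once, at bases 183 to 188, and 11.9% of all 32851 RefSeq windows held it. The Lgals9 window held the ISRE letters 2 times on the opposite strand, at bases 196 to 205 and 266 to 275, and 3.44% of all windows held it. The windows of Lgals3, Lgals4, Lgals7 and Lgals8 held neither set of letters. These matches are letters in a window only; the arrays hold no measure of binding.

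Levels below are log2 signals less the 75th percentile of the non-control probes of that array, so a level of 0 is that percentile, and a difference of 1 is 2-fold. The 12 arrays had 60 to 78.2% of their spots well above background, a call made by the scanner software, with 77.2 to 78.2% on the 4 arrays of slide 4 (KO4, KO5, Het5, WT5). The arrays numbered 3 stood apart: they correlated with arrays of their own genotype at r = 0.923 to 0.970 over the tested probes that had a value on every array, against 0.969 to 0.998 between the other arrays of a genotype, the highest being KO4 with KO5. WT3 also went against its label of female cells: its Xist level at 1 probe was −2.98, against 1.60 to 3.35 on the other 11 arrays, and its Ddx3y level was 0.99, against −4.41 at most. Results are therefore given with all 12 arrays and without the 3 arrays numbered 3. One Sirt1 probe (chr10:62838289-62838348) averaged −0.52 ± 0.30 in KO, 0.31 ± 0.03 in Het and 0.30 ± 0.20 in WT (SD, n = 4 each), lower in KO than in WT (limma adjusted p = 0.0366), whereas the other (chr10:62855795-62855854) differed by 0.02 (limma adjusted p = 0.977). All 12 fibroblast markers examined were well above background on all 12 arrays, while Ptprc of leukocytes, Cdx1 and Cdx2 of gut epithelium, Ivl and Dsg1a of stratified epithelium, Lep of adipocytes and Wt1 of mesothelium were so on none. Other markers of these lists were so on all 12 arrays: 3 of 15 for leukocytes, 5 of 15 for simple epithelium and 6 of 12 for stratified epithelium. The same held for 3 of 12 adipocyte markers and 2 of 6 mesothelial markers, Msln and Krt7. Msln averaged 4.21 in KO, 3.82 in Het and 3.04 in WT. Its WT3 level was −1.15 and its other WT levels were 2.71 to 5.51. Without the arrays numbered 3, its KO minus WT was 0.28 and its Het minus WT −0.18. Krt7 averaged −2.97, −2.40 and −0.96, highest in WT. Upk3b averaged −7.48, −8.14 and −4.99, with Het minus WT at −3.15 (limma adjusted p = 0.0420). Upk3b was well above background on 2 KO, 0 Het and 4 WT arrays. It was tested only through WT, where it was highest, so its size and p-value are uncertain. In a bulk culture, fewer cells of a type and less RNA per cell cannot be told apart.

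Lgals2 was the one galectin probe whose KO and Het arrays both lay wholly above the WT arrays. Lgals2, galectin-2, is a prototype galectin. Its level was −1.05 in KO2, −2.59 in KO3, −1.34 in KO4 and −1.43 in KO5. In the Het arrays it was −2.89 in Het2, −1.91 in Het3, −3.51 in Het4 and −3.39 in Het5, and in the WT arrays −7.05 in WT1, −5.06 in WT2, −7.35 in WT3 and −4.97 in WT5. The order was KO, Het and WT by mean, and KO and Het overlapped only through the arrays numbered 3, KO3 being below Het3. Lgals2 was well above background on all KO and Het arrays and on 2 of 4 WT arrays (WT2 and WT5).

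The Lgals2 mean was −1.60 ± 0.68 in KO, −2.92 ± 0.73 in Het and −6.11 ± 1.27 in WT (SD, n = 4 each). The difference was 4.50 for KO minus WT (SE 0.59, 22.7-fold), 3.18 for Het minus WT (SE 0.59, 9.08-fold) and 1.32 for KO minus Het (SE 0.59, 2.50-fold). The sizes against WT are uncertain, because WT1 and WT3 were not well above background. The same differences were 4.42, 2.43 and 1.99 without the arrays numbered 3, and no KO array then overlapped a Het array. Within slide 3, which holds KO2, Het2, WT2 and WT3, KO minus WT was 5.15, Het minus WT 3.31 and KO minus Het 1.84. Within slide 4 these were 3.58, 1.58 and 2.00, and within slide 1, which holds KO3, Het3 and Het4 and no WT array, KO minus Het was 0.12. Because every KO and Het array lay above every WT array, the signs against WT within a slide were fixed in advance. The within-slide values against WT therefore describe sizes only.

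**Figure D1:**
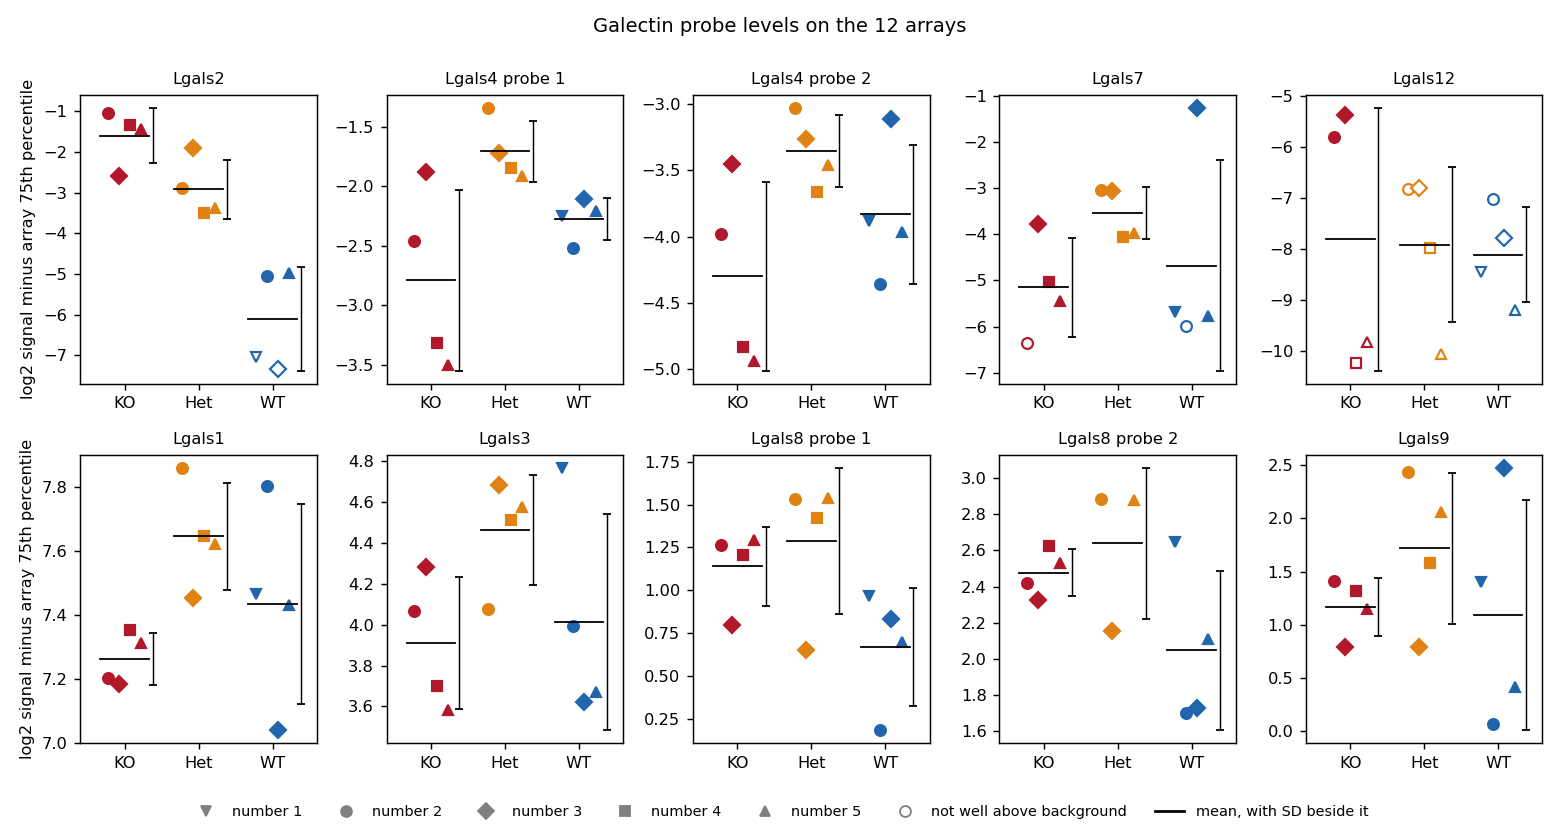
Level of each of the 10 galectin probes (log2 signal minus the array's 75th percentile) on the 4 KO, 4 Het and 4 WT arrays, with the marker giving the array's number, an open marker a spot not well above background, the line the mean and the bar its SD; each panel has its own axis. In the Lgals2 panel all KO and Het arrays, from −3.51 to −1.05, lie above all WT arrays, from −7.35 to −4.97, and in the Lgals7 panel WT3 at −1.27 lies far above the other WT arrays.

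The gene tracks most like Lgals2 were found by Pearson's r of the level over the 12 arrays, among all tested probes and with no p; the arrays share genotype and slide. They were 2310033P09Rik (r = 0.963), the tRNA methyltransferase gene Trmt10b (Rg9mtd3 on the array, 0.948), Wbp1 (0.947), Dennd11 (E330009J07Rik on the array, 0.937) and the ubiquitin-conjugating enzyme gene Ube2a (0.935). The most opposite were the channel gene Panx1 (−0.950), the RNA-binding protein gene Rbms1 (−0.943) and Nipal4 (9530066K23Rik on the array, −0.930). Nipal4 was well above background on 2 KO, 1 Het and 4 WT arrays. It was thus among the tested probes only through WT, where it was highest, and its r is uncertain. All of these 5 like genes differed less between KO and WT than Lgals2 did, from 0.56 for Ube2a to 1.70 for Dennd11. Over the 7 other galectin probes measured on 12 arrays, r was from −0.31 for Lgals4 probe 2 to 0.39 for Lgals8 probe 1.

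The Lgals7 pattern depended on a single WT array. Lgals7, galectin-7, also a prototype galectin, had levels of −6.35 in KO2, −3.77 in KO3, −5.03 in KO4 and −5.45 in KO5. It was −3.05 in Het2, −3.06 in Het3, −4.06 in Het4 and −3.98 in Het5, and in WT it was −5.68 in WT1, −5.98 in WT2, −1.27 in WT3 and −5.78 in WT5. WT3 was the highest of all 12 arrays, while the other 3 WT arrays lay below every Het array; KO2 and WT2 were not well above background.

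Over 12 arrays Lgals7 averaged −5.15 ± 1.07 in KO, −3.54 ± 0.56 in Het and −4.68 ± 2.27 in WT (SD, n = 4 each). Its differences were −0.47 for KO minus WT, 1.14 for Het minus WT and −1.61 for KO minus Het, and none passed the limma test (adjusted p = 0.863, 0.585 and 0.572). Without the arrays numbered 3, Het minus WT was 2.12 (limma adjusted p = 0.00898) and KO minus Het −1.91 (limma adjusted p = 0.0143), both past the threshold, and KO minus WT was 0.20 (limma adjusted p = 0.766). Lgals7 passed the filter on dim probes only through Het, where it was highest, and KO2 and WT2 were not well above background, so these sizes and p-values are uncertain. With only WT3 left out, Het minus WT was 2.27 (limma adjusted p = 0.0249), with the same limit. Within slides, Het minus WT was 0.57 on slide 3, which holds WT3, and 1.80 on slide 4, while KO minus WT was −2.72 and 0.54, of opposite signs. Markers of stratified epithelium, the tissue known for galectin-7, were partly detected: 6 of 12 were well above background on all 12 arrays, and their summed level was 3.92 to 3.99 in KO, 3.92 to 4.17 in Het and 3.77 to 4.44 in WT, with WT3 the lowest. Their part in the Lgals7 values was not tested.

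Lgals1, galectin-1, the third prototype member, was bright on every array, with signals of 330388 to 510848 and no saturated spot. Its level was 7.20 in KO2, 7.18 in KO3, 7.35 in KO4 and 7.31 in KO5, against 7.86 in Het2, 7.45 in Het3, 7.65 in Het4 and 7.62 in Het5. In WT it was 7.47 in WT1, 7.80 in WT2, 7.04 in WT3 and 7.43 in WT5. All KO arrays lay below all Het arrays, and WT overlapped both. The difference was −0.17 for KO minus WT, 0.21 for Het minus WT and −0.38 for KO minus Het, and none passed the limma test (adjusted p = 0.680, 0.580 and 0.428). For KO minus Het the exact two-sided permutation test gave p = 0.0286, the smallest that 4 arrays against 4 allow. KO minus Het was −0.66 within slide 3, −0.29 within slide 4 and −0.37 within slide 1, negative on all of them.

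Lgals3, galectin-3, the chimera-type member, did not differ past the test between any 2 genotypes. Its level was 4.07, 4.28, 3.70 and 3.58 in KO2 to KO5, 4.08, 4.69, 4.52 and 4.58 in Het2 to Het5, and 4.77, 3.99, 3.62 and 3.67 in WT1, WT2, WT3 and WT5. Het was the highest by mean, and every pair of genotypes overlapped. The difference was −0.10 for KO minus WT, 0.45 for Het minus WT and −0.55 for KO minus Het (limma adjusted p = 0.898, 0.434 and 0.468). Within slides 3 and 4, Het minus WT was 0.27 and 0.91, and KO minus WT 0.26 and −0.03. Of 15 macrophage and leukocyte markers, cells rich in galectin-3, 3 were well above background on all 12 arrays, Ptprc and Mrc1 were so on none, and the summed level was −0.30 to 0.06 in KO, −0.39 to 0.55 in Het and −0.26 to 1.10 in WT.

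Among the tandem-repeat galectins, both Lgals4 probes ordered the genotypes the same way, with Het highest and KO lowest. Lgals4 probe 1 read −2.46 in KO2, −1.88 in KO3, −3.32 in KO4 and −3.50 in KO5. It read −1.34 in Het2, −1.72 in Het3, −1.85 in Het4 and −1.91 in Het5, and −2.25 in WT1, −2.52 in WT2, −2.11 in WT3 and −2.21 in WT5. All Het arrays lay above all WT arrays, while KO3 lay within the Het range and above the WT range, and KO2 lay within the WT range. The mean was −2.79 ± 0.76 in KO, −1.71 ± 0.25 in Het and −2.27 ± 0.18 in WT (SD, n = 4 each).

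For Lgals4 probe 1, KO minus WT was −0.52, Het minus WT 0.57 and KO minus Het −1.08, and none passed the limma test (adjusted p = 0.452, 0.401 and 0.181); for Het minus WT the exact permutation test gave 0.0286. Lgals4 probe 2 read −3.98, −3.45, −4.83 and −4.94 in KO2 to KO5, −3.03, −3.26, −3.66 and −3.46 in Het2 to Het5, and −3.88, −4.36, −3.11 and −3.97 in WT1, WT2, WT3 and WT5. As at probe 1, KO4 and KO5 were its lowest arrays and Het2 its highest. Its differences were −0.47, 0.48 and −0.95 (limma adjusted p = 0.558, 0.536 and 0.317). When the arrays numbered 3 were left out, KO minus Het was past the threshold at both probes, at −1.39 (2.63-fold, limma adjusted p = 0.0186) and −1.20 (2.30-fold, limma adjusted p = 0.037). The slides did not give one value for it: at probe 1, KO minus Het was −1.12 within slide 3, −1.50 within slide 4 and −0.09 within slide 1. Lgals6, the near copy of Lgals4, had differences of −0.26, 0.51 and −0.77, of the same signs, and none passed the limma test (adjusted p = 0.741, 0.453 and 0.372). Its probe was dim, with means of −5.80 in KO, −5.03 in Het and −5.54 in WT. It was well above background on 4 KO, 3 Het and 3 WT arrays, so its sizes and signs are uncertain. Cross-hybridisation between these copies was not tested. Of 15 markers of simple epithelium, the tissue known for galectin-2 and galectin-4, 5 were well above background on all 12 arrays, Cdx1 and Cdx2 on none, and the summed level was 1.72 to 2.58 in KO, 0.51 to 1.88 in Het and 1.50 to 4.12 in WT. Members of that list moved in both directions. Epcam was 1.59 higher in KO than in WT (limma adjusted p = 0.0461) and Krt8 3.37 higher in Het than in WT (limma adjusted p = 0.0348). Each was well above background on only 1 WT array, so both sizes and p-values are uncertain. Epcam was also tested only through KO, where it was highest. Krt19, well above background on all 12 arrays, had differences of −1.61 for KO minus WT and −3.18 for Het minus WT (limma adjusted p = 0.287 and 0.0608), and without the arrays numbered 3 it was −2.38 and −4.31 (limma adjusted p = 0.0150 and 0.00144). The part of such cells in the Lgals2 and Lgals4 values was not tested.

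Lgals8, galectin-8, which binds glycans on damaged vesicles, had higher means in KO and Het than in WT at both probes, but no difference passed the test on 12 arrays. Lgals8 probe 1 read 1.26, 0.80, 1.21 and 1.29 in KO2 to KO5, 1.53, 0.65, 1.42 and 1.54 in Het2 to Het5, and 0.97, 0.18, 0.83 and 0.70 in WT1, WT2, WT3 and WT5. KO3 and Het3 were the lowest of their genotypes and were the only KO and Het arrays to fall within the WT range. At probe 1, KO minus WT was 0.47, Het minus WT 0.62 and KO minus Het −0.15 (limma adjusted p = 0.361, 0.238 and 0.882). Within slides 3 and 4, KO minus WT was 0.76 and 0.55, and Het minus WT 1.03 and 0.84. Probe 2, whose Het4 spot was left out as an outlier called by the scanner software, read 2.42, 2.33, 2.63 and 2.53 in KO2 to KO5, 2.88, 2.15 and 2.88 in Het2, Het3 and Het5, and 2.65, 1.70, 1.73 and 2.11 in WT1, WT2, WT3 and WT5. WT1 lay above all KO arrays, and all KO arrays and Het3 lay within the WT range. Its differences were 0.43, 0.59 and −0.16 with 3 Het arrays (limma adjusted p = 0.420, 0.303 and 0.880). Without the arrays numbered 3, Het minus WT at probe 1 was 0.88 (1.84-fold, limma adjusted p = 0.0241) and passed, whereas KO minus WT was 0.64 (limma adjusted p = 0.0597) and probe 2 gave 0.73 for Het minus WT (limma adjusted p = 0.132). The 2 probes thus shared their order of genotypes but not the call.

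Lgals9, galectin-9, differed between genotypes by less than the spread of its WT arrays. Its level was 1.41 in KO2, 0.79 in KO3, 1.32 in KO4 and 1.15 in KO5, 2.44 in Het2, 0.79 in Het3, 1.58 in Het4 and 2.06 in Het5, and 1.41 in WT1, 0.07 in WT2, 2.48 in WT3 and 0.41 in WT5. WT2 was the lowest and WT3 the highest of the 12 arrays, so the WT arrays enclosed all others. The difference was 0.08 for KO minus WT, 0.63 for Het minus WT and −0.55 for KO minus Het (limma adjusted p = 0.964, 0.564 and 0.749). Het minus WT was 1.40 without the arrays numbered 3 (2.64-fold, limma adjusted p = 0.0364), with all Het arrays above all WT arrays. Within slides 3 and 4, Het minus WT was 1.17 and 1.65, and KO minus WT 0.14 and 0.82.

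Genes of the interferon response were set beside Lgals9. The median level of the 28 genes, all well above background on 12 arrays, was 2.34 in KO2, 2.19 in KO3, 2.70 in KO4 and 2.53 in KO5, 3.74 in Het2, 1.47 in Het3, 2.93 in Het4 and 2.94 in Het5, and 2.09 in WT1, 0.82 in WT2, 2.23 in WT3 and 1.94 in WT5. As for Lgals9, Het2 was the highest Het array, Het3 the lowest Het array and WT2 the lowest of all arrays. Of these 28 genes, 25 were higher in KO and 28 in Het than in WT, with median differences of 0.73 and 1.03, but none passed the limma test over 12 arrays. Limma's unadjusted p was under 0.05 for 7 and for 11 of them, beside 4210 and 4105 of all 25601 tested probes. The furthest in KO minus WT were Ifi44 at 1.73, the antiviral GTPase gene Mx1 at 1.73 and the guanylate-binding protein gene Gbp2 at 1.52 (limma adjusted p = 0.273, 0.445 and 0.249). With the arrays numbered 3 left out, 7 of the 28 rose in KO against WT and 17 of 28 in Het against WT, beside 7.8% and 5.06% of all 26804 probes tested that way that were higher. Het minus WT was then 3.41 for Mx1 (limma adjusted p = 0.00901) and 2.41 for Oasl2 (limma adjusted p = 0.00803).

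**Figure D2:**
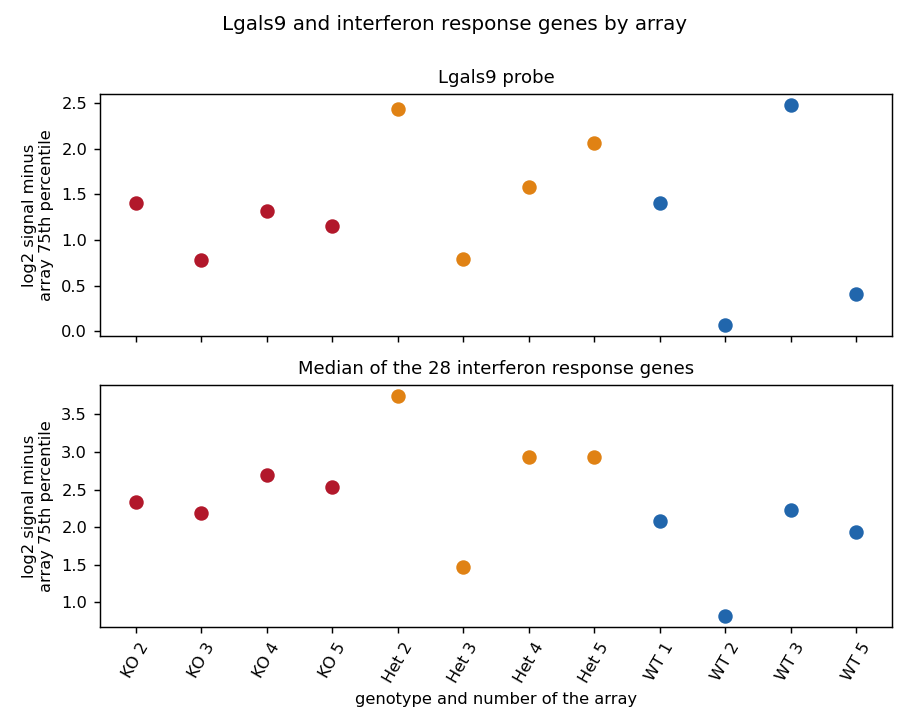
Level of the Lgals9 probe (top) and median level of the 28 interferon response genes (bottom), both as log2 signal minus the array's 75th percentile, by array, 1 point an array and coloured by genotype (KO, Het, WT). Het2 is the highest and Het3 the lowest Het array in both panels, and WT2 is the lowest array of all; WT3 is the highest array for Lgals9 at 2.48 but not for the interferon genes, at 2.23.

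Lgals12, galectin-12, known from adipocytes, was well above background on KO2 and KO3 alone, at levels of −5.82 and −5.38. The other 10 arrays had values from −10.23 to −6.81 that were not well above background, so the probe was not tested and no fold is given. Of 12 adipocyte markers, 3 were well above background on all 12 arrays and Lep on none, and the summed level was 0.37 to 3.097 in KO, 0.82 to 2.18 in Het and 0.98 to 1.23 in WT. The highest of these was KO3. Of the 5 adipocyte markers tested, 4 had higher means in KO than in WT and 4 in Het than in WT. Lpl was lower in both, at −3.89 and −3.86 (limma adjusted p = 0.00926 and 0.0146). It was the 1 marker of that list called in each, beside 1.48% and 1.09% of all tested probes.

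Of the 9 tested galectin probes, 8 were not chosen by their own values, and the counts that follow leave Lgals2 out. At limma adjusted p under 0.05, none of the 8 was called over 12 arrays in KO minus WT, beside 1.48% of all 25601 probes tested, none in Het minus WT, beside 1.09%, and none in KO minus Het, beside 0.809%. Limma's unadjusted p was under 0.05 for 0 of the 8 in KO minus WT, 2 in Het minus WT and 3 in KO minus Het. Over all 25601 tested probes it was so for 4210, 4105 and 2873. The exact permutation test was under 0.05 for 0, 1 and 1 of the 8.

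Signs were unequal between the comparisons. All 8 probes were higher in Het than in WT, with a median difference of 0.58, against 0.03 over all 25601 tested probes, and all 8 were lower in KO than in Het, with a median of −0.55, against 0.00. In KO minus WT 3 of 8 were higher and the median was −0.14, against 0.05. These comparisons share arrays, and probes of 1 gene are not independent. Arrays did not overlap at 0 of the 8 in KO minus WT (8.79% of all tested probes), at 1 in Het minus WT (8.75%) and at 1 in KO minus Het (9.96%).

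Without the arrays numbered 3, 0 of the 8 were called in KO minus WT (15.6% of all tested), 3 in Het minus WT (10.5%) and 3 in KO minus Het (7.85%). The 3 in Het minus WT were Lgals7, Lgals8 probe 1 and Lgals9, all higher in Het, and the 3 in KO minus Het were Lgals7 and both Lgals4 probes, all lower in KO. The Lgals7 calls carry the limit given above, that it was tested only through Het. The probes with no overlap then numbered 2 in KO minus WT (34.9% of all tested), 6 in Het minus WT (30.1%) and 8 in KO minus Het (34.3%).

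**Figure D3:**
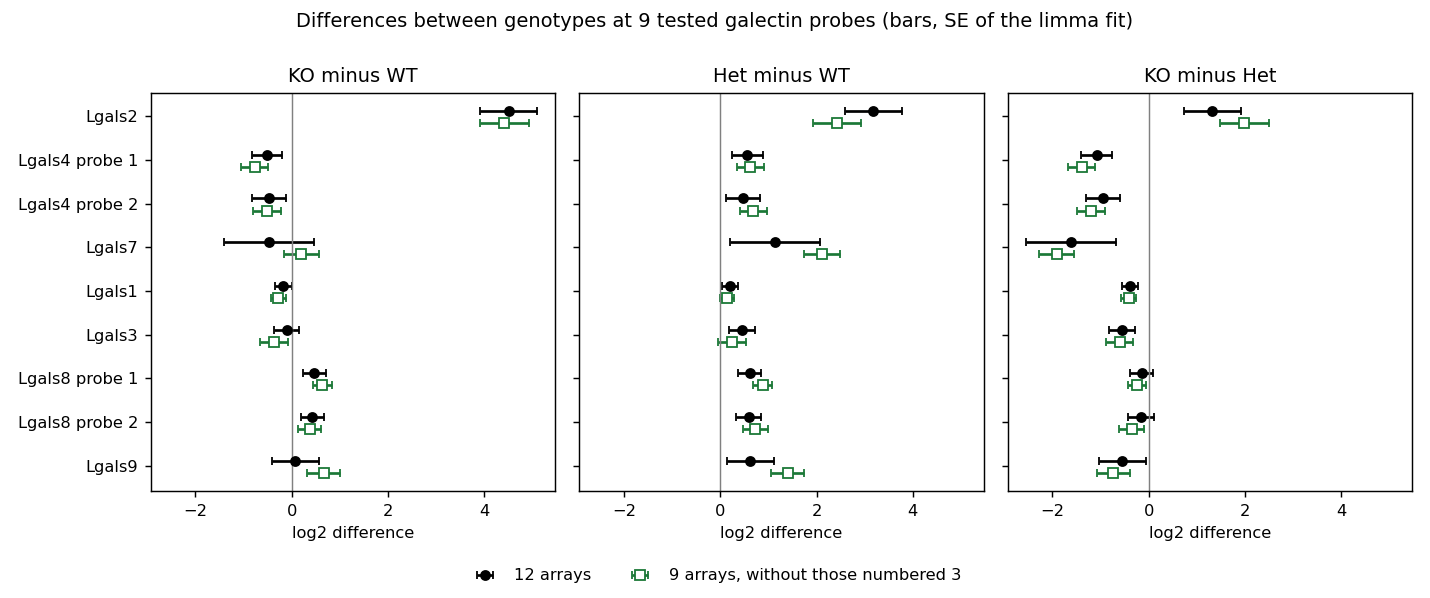
Log2 differences KO minus WT, Het minus WT and KO minus Het at the 9 tested galectin probes, with bars of 1 SE of the limma fit; filled circles use 12 arrays and open squares leave out the 3 arrays numbered 3. Lgals2 lies at 4.50 and 3.18 in the first and second panels, Lgals7 shows the widest bars on 12 arrays, and all 9 probes lie right of 0 in Het minus WT.

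Enzymes that build and cap the glycans read by galectins were examined next. Of 24 genes of N-glycan branching and galactosylation, 22 were tested. Their median differences were 0.00 for KO minus WT, 0.24 for Het minus WT and −0.02 for KO minus Het. None was called in any comparison, beside 1.48%, 1.09% and 0.809% of all tested probes. For 5, 4 and 2 of them limma's unadjusted p was under 0.05, beside 4210, 4105 and 2873 of all 25601 tested probes. With the arrays numbered 3 left out, 3 rose and 2 fell in KO against WT, 1 fell in Het against WT, and 1 rose and 1 fell in KO against Het, beside 15.6%, 10.5% and 7.85% of all tested probes called. The furthest in KO minus WT were Mgat3, which adds the bisecting GlcNAc, at 1.09, and Mgat4a, which starts a branch, at 1.01 (limma adjusted p = 0.166 and 0.313). Mgat4a was well above background on 4 KO, 3 Het and 2 WT arrays. With all arrays it was tested only through KO, where it was highest, so its size and p-value are uncertain. Mgat4a was also among the 3 that rose in KO against WT without the arrays numbered 3. Its difference was then 1.15 (limma adjusted p = 0.00843), likewise uncertain. Some sialyltransferases can mask the galactose that galectins bind. Of 10 sialyltransferases listed 10 were tested, with medians of 0.25, 0.18 and 0.02. St6galnac2 and St6galnac4, both in that list, act on GalNAc and not on galactose.

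Among the sialyltransferases, 2 rose and 1 fell in KO against WT, and 2 rose in Het against WT, beside 1.48% and 1.09% of all tested probes called in those comparisons. In KO minus WT, St6galnac2 was 1.97 higher (SE 0.41, limma adjusted p = 0.0382), St3gal5, the GM3 ganglioside synthase, 1.06 higher (SE 0.155, limma adjusted p = 0.00968), and St3gal1, which sialylates core 1 O-glycans, was lower, at −1.69 (SE 0.35, limma adjusted p = 0.0400). In Het minus WT, St3gal6 was 2.60 higher (limma adjusted p = 0.0394) and St6galnac2 1.95 higher (limma adjusted p = 0.0469). St3gal6 was dim in WT, with a mean of −6.16, and was well above background on 3 of 4 WT arrays. Its Het3 level of −5.19 lay beside WT1 at −5.24, so its size is uncertain. None was called by limma in KO minus Het, where unadjusted p was under 0.05 for 5, beside 2873 of all 25601 tested probes. With the arrays numbered 3 left out, 2 rose and 3 fell in KO against WT, 2 rose in Het against WT, and 1 rose and 3 fell in KO against Het, beside 15.6%, 10.5% and 7.85% of all tested probes.

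Among 37 glycoproteins known as galectin ligands, 33 were tested, and 3 fell in KO against WT while none rose, beside 1.48% of all tested probes called. These were Thy1, a surface glycoprotein of fibroblasts, at −3.47 (SE 0.30, limma adjusted p = 0.000914), the co-receptor Nrp1 at −1.24 (SE 0.18, limma adjusted p = 0.00801) and the integrin subunit Itgb1 at −0.82 (SE 0.15, limma adjusted p = 0.027). In KO minus Het, Thy1 at −2.16, Nrp1 at −0.91 and Itga6 at −1.54 fell (limma adjusted p = 0.0102, 0.0371 and 0.0237), beside 0.809% of all tested probes called. In Het minus WT none was called, with 7 at an unadjusted limma p under 0.05, beside 4105 of all 25601 tested probes. The list's medians were −0.08, −0.16 and −0.06. With the arrays numbered 3 left out, 3 rose and 7 fell in KO against WT, 3 rose and 4 fell in Het against WT, and 4 rose and 5 fell in KO against Het, beside 15.6%, 10.5% and 7.85% of all tested probes. Thy1 is also 1 of the 12 fibroblast markers, of which it was the 1 called in KO minus WT; Dcn was lower too in KO than in Het, at −3.21 (limma adjusted p = 0.0187).

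Genes of the response to damaged vesicles, which galectin-3 and galectin-8 are known to recruit or report, were not called over 12 arrays: 11 of 11 were tested, with medians of 0.10, 0.15 and −0.06. Limma's unadjusted p was under 0.05 for 1, 1 and 0 of them, beside 4210, 4105 and 2873 of all 25601 tested probes. The furthest in KO minus WT was Trim16, a known partner of galectin-3 at damaged lysosomes, at −0.58 (limma adjusted p = 0.464). Without the arrays numbered 3 it was −0.92 (limma adjusted p = 0.0210). It was the 1 gene of these 11 then called, beside 15.6% of all tested probes called in KO minus WT. Of the galectin-related genes outside the family list, Lgals3bp, which encodes a secreted ligand of galectin-3, had differences of 0.15, 0.72 and −0.56 and Lgalsl −0.21, −0.18 and −0.03. None of the 3 tested genes was called by limma over 12 arrays. Unadjusted limma p was under 0.05 for 0, 0 and 1 of them, beside 4210, 4105 and 2873 of all 25601 tested probes. Without the arrays numbered 3, Lgals6 was −1.06 in KO minus Het (limma adjusted p = 0.0419), the 1 gene of these 3 then called, beside 7.85% of all tested probes. Its lowest KO arrays were KO4 at −6.34 and KO5 at −6.26, both on slide 4. The probe is dim and was not well above background on every Het and WT array, so this size and p-value are uncertain.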

How the data were processed

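Signals of 12 one-colour Agilent arrays were used as deposited: the processed signal intensity per spot, which per the file headers was background-subtracted by Feature Extraction 9.5.3.1 (9.5 per the submitters' processing notes), with mm7 coordinates. The authors' series table held the same intensities on a linear scale, uncentred (array medians 92.5 to 164), and gave the same calls. Spots flagged as outliers were left out, spots of a probe averaged, and log2 intensity was centred by subtracting the 75th percentile of an array's non-control probes. The fit in limma 3.58.1 (R 4.3.3; tables in Python 3.11.15) gave each genotype a mean over all 12 arrays. Probes well above background on every array of at least 1 genotype were tested, and p-values were adjusted over all 25601 by Benjamini-Hochberg; the threshold was 0.05. Single probes were also tested by exact two-sided permutation. The step was tested on simulated data. Gene names are the array's, updated through RefSeq (GRCm38.p6) for 32762 probes, with 8412 left without a current symbol. For a listed gene with several probes, the brightest tested probe was used.

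The members and lists were chosen with earlier results of these data known. All member probes were named. From a list, called genes and up to 3 genes with the widest KO minus WT difference were named; Oasl2 was picked after its values were seen. For likeness to Lgals2 the 5 highest and 3 lowest correlations were named. The number of arrays, not a count of reads, limits the precision. Alternatives were normexp background correction, quantile and no scaling, probe filters, slide and replicate blocks, and leaving arrays out.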

Additional observations from a re-analysis of the deposited data

Results flagged for a closer look

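In 29 sets of 4 arrays of 1 genotype at a galectin probe, 1 array was set far from the other 3 in 3 sets by Dixon's criterion; about 1 in 20 sets is expected by chance. Lgals7 on WT3 was at −1.27, with the other WT arrays from −5.98 to −5.68. Lgals8 probe 1 was at 0.80 on KO3, with the other KO arrays from 1.21 to 1.29, and at 0.65 on Het3, with the other Het arrays from 1.42 to 1.54. All 3 are arrays numbered 3, which also had the lowest correlations with arrays of their own genotype.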

How the results depend on the processing

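Over 12 arrays, 379 probes were called in KO minus WT, 278 in Het minus WT and 207 in KO minus Het. These became 168, 59 and 88 with normexp, 125, 60 and 87 with no filter on dim probes, and 73, 55 and 105 with slide as a fixed block. With no scaling the calls against WT were 153 and 162, and with probes well above background on all 12 arrays those in KO minus Het were 121. Without the arrays numbered 3 they were 4171, 2804 and 2104, and 3956, 2686 and 1927 on the probes of the 12-array fit, an alternative chosen after seeing the data, as were the values within slide 1. Leaving out 1 array gave 67 to 2423, 39 to 2042 and 51 to 522 calls, the highest against WT without WT3. The cause of these shifts was not tested. The other settings stayed within 1.5 times. Same-numbered arrays deviated together at r = −0.09 to 0.40 (5 of 10 pairs over 0.1), so numbers were not taken as pairing; the replicate block gave 142, 113 and 219 calls. Lgals2 was chosen by its differences against WT, so that it kept its sign throughout is a description only. It was at 3.05 to 5.15 for KO minus WT, 1.58 to 3.56 for Het minus WT and 0.12 to 2.00 for KO minus Het, and at 3.05 and 1.89 against WT with normexp. Of 617 recomputed differences of the other probes, 14 passed the threshold and 17 had the opposite sign, none of these past it. Besides the settings without number 3, Lgals4 probe 1 passed in KO minus Het without KO3 (−1.39, limma adjusted p = 0.0219). Dim probes are limited by signal over background: Lgals2 in WT, Lgals7 on 2 arrays and Lgals12 on 10.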
